A study of Homo sapiens with 18 samples.

Results

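U251 glioblastoma cells exposed to enzastaurin for 10 h were compared with cells given its solvent DMSO for the same 10 h, which takes 6 arrays, 3 per group, of the 18 in the series. U251 is an established human cell line from a glioblastoma, an aggressive brain tumour, and enzastaurin is a drug designed to block the beta isoform of protein kinase C. All groups were grown in RPMI medium with 5% serum. The remaining 12 arrays hold the same 2 treatments at 4 and 18 h, and the series title is about blocking of the kinase GSK3, with NF-kB, glucose and the transcription factor MYC. The labels give no dose of enzastaurin, nor whether each replicate was its own culture. P-values therefore reflect the spread among these samples alone, and that spread may be technical. Moreover a single cell line limits the groups as a model.

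Total RNA was hybridised to Affymetrix HG-U133 Plus 2.0 arrays, and each probe set gave 1 signal intensity on a linear scale. Changes are differences of log2(intensity + 16) between group means, so a change of 1 is a doubling for bright genes and an understated doubling for dim ones. The gene's brightest probe set represented it, and 12376 genes lay above the median level of all probe sets, an intensity of 102.0. A gene is called where the Benjamini-Hochberg adjusted p from limma, over all 12376 genes, is under 0.05. The median standard error of a 10 h change was 0.134. Array medians at 10 h ran from 99.2 to 118.2, both among the enzastaurin arrays, and arrays of a group correlated at 0.958 to 0.969. Enzastaurin replicate 3 had the highest median and deviated most from its group. Of the astroglial markers, VIM (mean intensity 31381 in DMSO), CD44 (19172), NES (4320), SOX2 (3246) and FABP7 (4457) were measured, whereas GFAP, S100B, AQP4 and CHI3L1 lay below the level filter, at 33.0, 7.67, 85.9 and 34.6. Their means lay below that level in both groups at 10 h, although the highest AQP4 array read 102.8. Of 8 astroglial markers tested none was called, and of the 17 tested members of 6 lists for other cell types 1 was, the synaptic gene SYT1 (0.39), whose call was lost when any single array was left out (highest adjusted p 0.151). The summed level of the neuron markers ran from 2632 to 2940 in DMSO and from 2967 to 3055 in enzastaurin, with RBFOX3 and STMN2 below the level filter. That of the fibroblast and mural markers ran from 1951 to 2377 and from 1772 to 1904, with LUM and PDGFRB below it. Their part in other results was not tested.

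As background, GSK3 marks beta-catenin for destruction, and when the kinase is blocked beta-catenin enters the nucleus and drives Wnt target genes with TCF/LEF factors. SREBP factors drive sterol and fatty acid synthesis and are held in the endoplasmic reticulum (ER) by INSIG proteins while sterol is plentiful. ATF4 is translated when the initiation factor eIF2 is phosphorylated, and it drives genes for amino acid supply and tRNA charging. ATF6 and spliced XBP1 drive ER chaperones when unfolded proteins build up in the ER.

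At 10 h, 1046 genes were called, 8.45% of those tested, with 466 higher (3.77%) and 580 lower (4.69%). Counts of called members in the gene lists below are to be read against these shares. In RNA from whole cultures a change in the share of cells and a change per cell cannot be told apart. Of the calls, 648 were smaller than 0.5 on the log2 scale, 324 lay between 0.5 and 1, and 74 reached 2-fold, 32 higher and 42 lower. The median size of a called change was 0.43, and the median over all genes was -0.02. In 1039 of the 1046 called genes the arrays of the groups did not overlap, while 26.8% of all genes tested, 3315, showed no overlap. The count fell to 653 without DMSO replicate 2, to 685 without DMSO replicate 3, and to 502 without both 10 h arrays that deviated most (DMSO replicate 2 and enzastaurin replicate 3), the last setting chosen after the data were seen. Subtracting each array's median left 443 calls, all of them among the 1046, and 47.9% of these were higher against 44.6% before.

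**Figure D1:**
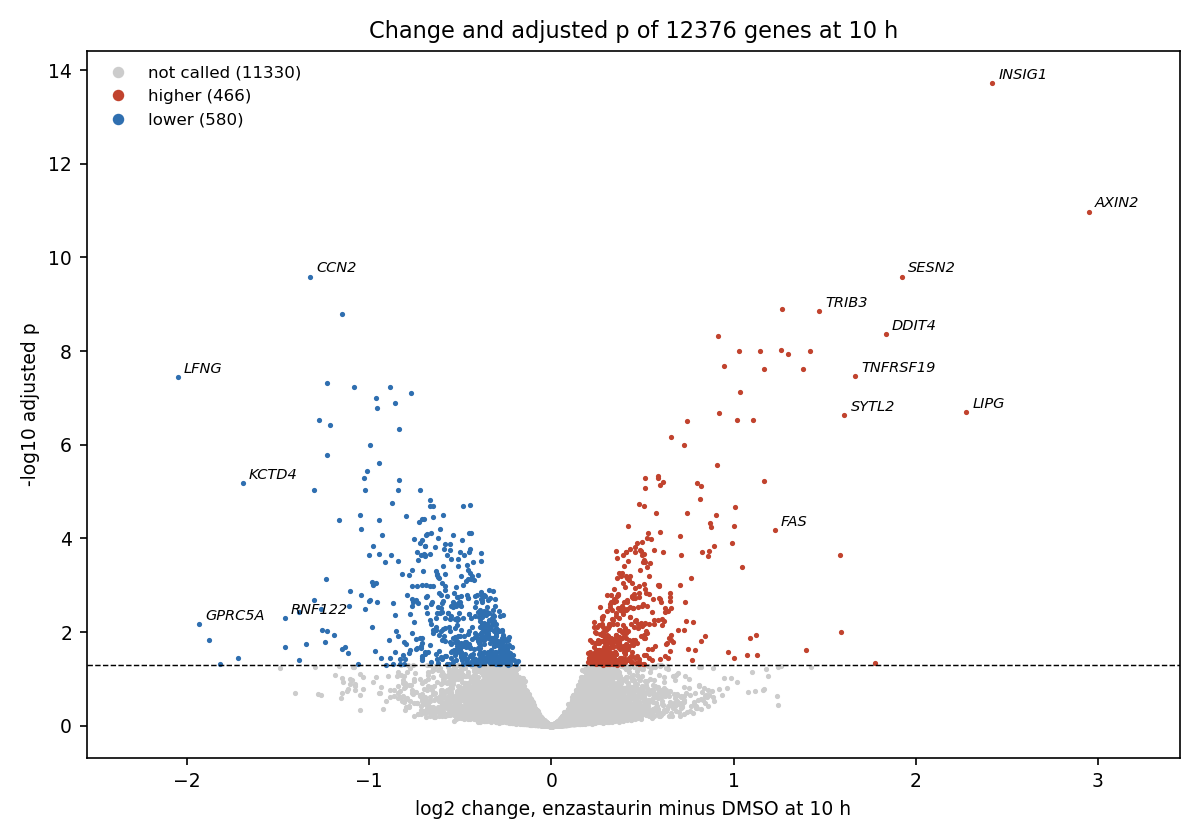
Log2 change at 10 h (x axis, enzastaurin minus DMSO) against -log10 of the adjusted p (y axis) for 12376 genes, with the dashed line at an adjusted p of 0.05. Among the 466 higher and 580 lower genes, INSIG1 (2.42) and AXIN2 (2.95) lie farthest up on the right, and CCN2 (-1.32) and ID1 (-1.15) on the left, where LFNG (-2.05) is farther out.

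The gene that rose most was AXIN2, a scaffold of the beta-catenin destruction complex that is itself a Wnt target. Its intensities were 190, 178 and 230 in the DMSO arrays and 1609, 1743 and 1571 in the enzastaurin arrays, so every treated array stood far above every control. The change was 2.95 (SE 0.13, adjusted p = 1.05e-11), and its 3 other probe sets above the level filter showed 1.78 to 2.49. INSIG1, which retains SREBP in the ER and is itself induced by SREBP, read 928, 818 and 908 in DMSO and 4652, 5137 and 4623 in enzastaurin, a 5.35-fold rise (log2 2.42, SE 0.08, adjusted p = 1.88e-14). LIPG, an endothelial lipase that acts on lipoprotein phospholipids, read 161, 91.5 and 110 in DMSO and 612, 635 and 650 in enzastaurin (2.28, SE 0.20, adjusted p = 2.04e-07). SESN2 (1.93), DDIT4 (1.84), CHAC1 (1.59) and TRIB3 (1.47), all known targets of stress factors such as ATF4, followed, with TNFRSF19 (1.67), a receptor gene linked to Wnt signalling, SYTL2 (1.61), a regulator of vesicle traffic, and MSMO1 (1.42), a sterol oxidase. The remaining 2 of the 12 largest rises, the divergent transcript MAN1B1-DT (1.78) and the pseudogene CYP2B7P (1.59), were dim in DMSO (means of 52.0 and 58.9). MAN1B1-DT lost its call when any single array was left out (highest adjusted p 0.168). CYP2B7P lost it when DMSO replicate 2 was left out (adjusted p = 0.0727) or enzastaurin replicate 3 was (0.0617), and its probe set may also read related cytochrome genes.

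The largest fall was in LFNG, a fringe enzyme that sugars Notch receptors. It read 2319, 2714 and 2478 in DMSO and 690, 640 and 467 in enzastaurin, a 4.14-fold fall (log2 -2.05, SE 0.16, adjusted p = 3.55e-08). With all its probe sets averaged, of which no other lay above the level filter, the change was -0.854 (adjusted p = 0.0174). CCN2, a matricellular growth factor and standard YAP target, read 10599, 10132 and 10545 against 4085, 4419 and 3976 (-1.32, SE 0.07, adjusted p = 2.58e-10), the smallest p among the falls named here. KCTD4 (-1.69), UBALD2 (-1.30) and IL31RA (-1.30), a cytokine receptor gene, also fell without overlap. Several of the largest falls were in genes that were dim already in DMSO. GPRC5A, an orphan receptor gene, read 178, 189 and 282 in DMSO but 19.0, 133 and 25.1 in enzastaurin, so that replicate 2 lay near the controls (-1.93, adjusted p = 0.00672). HSD17B1 (-1.88), a steroid dehydrogenase, lost its call without DMSO replicate 1 or without enzastaurin replicate 3 (highest adjusted p 0.0908), DHRS3 (-1.72), a retinal reductase, when any of 5 single arrays was left out (up to 0.180), and EFNA1 (-1.35), an ephrin ligand, without any 1 of 3 (up to 0.0995). The ubiquitin ligase gene RNF122 (-1.46) and SAMD9 (-1.38), an interferon-induced gene, kept theirs without any single array.

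**Figure D2:**
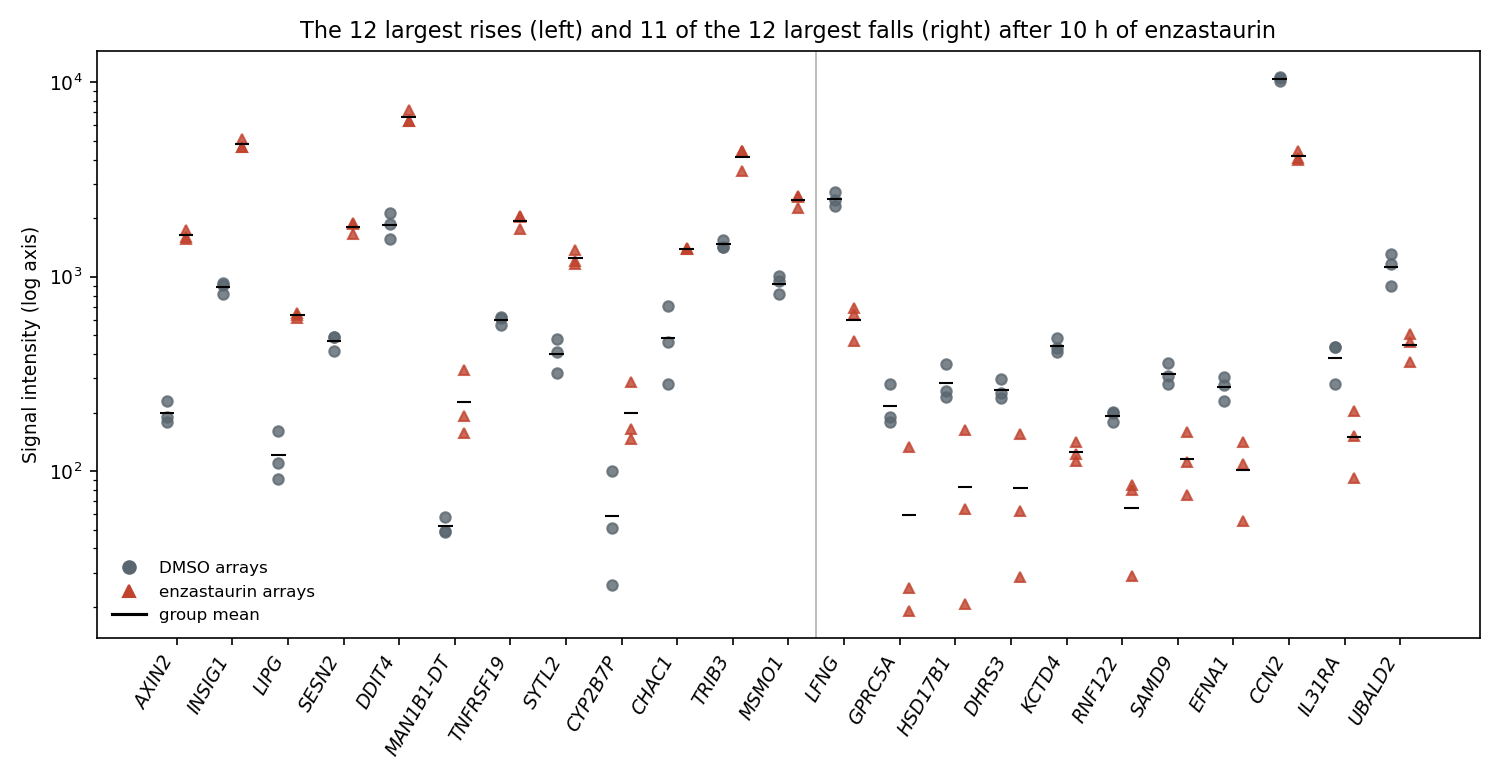
Signal intensity (y axis, log scale) of the 12 largest called rises and 11 of the 12 largest called falls with no overlap of arrays at 10 h, with 1 point per array and bars at the group means. The enzastaurin arrays of GPRC5A (19.0 to 133) and HSD17B1 (20.8 to 163) are far apart.

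Most sterol genes were higher. Of 16 sterol synthesis enzymes tested, 11 were higher and none lower, with a median of 0.44 against -0.02 over all genes. They lay on both sides of squalene, with 5 of 8 enzymes from acetyl-CoA to squalene and 6 of 8 from squalene to cholesterol. MSMO1 read 811, 946 and 1004 in DMSO and 2590, 2586 and 2266 in enzastaurin (1.42, adjusted p = 9.85e-09). SQLE, squalene epoxidase, read 2144, 2397 and 2457 against 4503, 4628 and 4391 (0.95, adjusted p = 2.05e-08), and HMGCS1, which makes HMG-CoA, read 677, 626 and 775 against 1508, 1473 and 1348 (1.05, adjusted p = 0.000401). The groups did not overlap in any of these. The count was 7 without both most deviating arrays. IDI1, an isomerase of the isoprenoid pathway, rose by 1.30 on its brightest probe set. Its 3 other probe sets ran from -0.45 to 1.48 and the call was lost when they were averaged.

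Regulators of the pathway changed in smaller number. Of 13 SREBP regulators and lipoprotein uptake genes, 5 were higher and 1 lower (median 0.27). STARD4, a carrier of sterol between membranes, read 384, 347 and 356 in DMSO and 1017, 988 and 903 in enzastaurin (1.38, adjusted p = 2.39e-08), and VLDLR, a lipoprotein receptor, rose by 0.80 (adjusted p = 6.47e-06). The lower member was MYLIP, a ligase that sends lipoprotein receptors for degradation, at 538, 606 and 585 in DMSO against 247, 267 and 438 in enzastaurin (-0.87, adjusted p = 0.00236). SREBF2, the gene of the sterol-specific SREBP, was higher (0.55, adjusted p = 0.0236), a call lost without DMSO replicate 2 or either of enzastaurin replicates 2 and 3 (highest adjusted p 0.158). SREBF1, which encodes the SREBP forms tied more to fatty acids, read 329, 401 and 231 against 298, 438 and 417, with overlapping groups (0.27, adjusted p = 0.57). Of 13 fatty acid genes, SCD, a desaturase (1.27, adjusted p = 1.25e-09), and FASN, fatty acid synthase (0.78, adjusted p = 0.00598), were higher and none was lower (median 0.17). Whether sterol and fatty acid genes differ in their response was not tested.

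The sterol regulatory element is the site through which SREBP acts. The letters TCACNCCAC, searched on both strands of the 250 bases before each listed start, were present in 0.883% of 35116 RefSeq promoter windows (GRCh38.p14). Counted by gene, 1.17% of 10080 tested, 1.55% of 388 higher and 1.41% of 495 lower genes with a window held a match. Among 39 sterol, SREBP and fatty acid genes with such a window, the match stood in 1 of 15 that were higher, SREBF2 itself, and in 1 of 23 that were not called. Over the first listed start of each gene alone the counts were 1 and 0. The SREBF2 promoter is shown because it places the match before the gene of the factor that binds such sites. It lies on the + strand at chr22:41832855-41833104, with the match in capitals 133 to 125 bases before the start.
SREBF2: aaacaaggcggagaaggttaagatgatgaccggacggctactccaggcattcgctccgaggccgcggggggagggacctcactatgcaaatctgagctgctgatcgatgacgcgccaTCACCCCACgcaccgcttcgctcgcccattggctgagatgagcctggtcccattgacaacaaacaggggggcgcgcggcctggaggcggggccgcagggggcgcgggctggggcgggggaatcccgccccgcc

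Among stress genes under ATF4 and CHOP the called members were all higher. Of 22 tested, 12 were higher and none lower (median 0.50). By role, 5 of 8 transcription factors, 7 of 10 feedback genes and effectors and 0 of 4 eIF2 kinases were higher. ATF4 itself read 9120, 10020 and 8866 in DMSO and 14254, 15642 and 16556 in enzastaurin (0.73, SE 0.07, adjusted p = 1e-06). DDIT3, the gene of CHOP, read 624, 699 and 775 against 769, 659 and 892, and its groups overlapped (0.14, SE 0.15, adjusted p = 0.681). SESN2, an inhibitor of the growth kinase complex mTORC1, read 492, 413 and 489 against 1664, 1889 and 1870 (1.93, adjusted p = 2.58e-10). DDIT4, another mTORC1 inhibitor, read 2125, 1878 and 1559 against 6357, 7192 and 6317 (1.84, adjusted p = 4.33e-09). TRIB3, a pseudokinase that restrains ATF4 and AKT, read 1430, 1551 and 1421 against 4422, 4411 and 3516 (1.47, adjusted p = 1.4e-09). CHAC1, an enzyme that breaks down glutathione, was even among treated arrays (1381, 1406 and 1387) and uneven among controls (711, 279 and 463).

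Called genes of amino acid supply were higher as well. Of 13 amino acid and one-carbon enzymes, 7 were higher and none lower (median 0.37). ASNS, asparagine synthetase, read 2385, 2377 and 2441 against 4822, 5346 and 4532 (1.02, adjusted p = 2.9e-07), and CTH, which makes cysteine, read 856, 723 and 803 against 1725, 1895 and 1776 (1.17, adjusted p = 2.36e-08). PSAT1, of serine synthesis, rose by 0.59 and SHMT2, of mitochondrial one-carbon metabolism, by 0.39 (adjusted p = 7.39e-06 and 0.000903). Of 19 amino acid transporters, 6 were higher and none lower (median 0.22). SLC3A2, the shared heavy chain of several exchangers, read 2491, 2464 and 2360 against 4113, 4091 and 4780 (0.82, adjusted p = 7.7e-06). Its partner SLC7A5, which carries large neutral amino acids, rose by 0.52 and the neutral transporter SLC1A4 by 0.60 (adjusted p = 9.94e-05 and 0.00199). The cationic transporter SLC7A1 (0.33, adjusted p = 0.0138) lost its call without DMSO replicate 3 or without enzastaurin replicate 3 (highest adjusted p 0.0825). Neither of 2 glutamate transporters tested was called.

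tRNA synthetases, which load amino acids onto tRNA, were counted by compartment. Of 17 cytosolic enzymes 11 were higher and none lower (median 0.28), whereas of 15 mitochondrial enzymes none was higher and 1, YARS2, was lower (median -0.02). YARS1, the cytosolic tyrosine enzyme, read 4343, 4471 and 4599 in DMSO and 6509, 6237 and 6380 in enzastaurin (0.51, SE 0.06, adjusted p = 1.99e-05). FARSA, CARS1 and GARS1, for phenylalanine, cysteine and glycine, rose by 0.51, 0.51 and 0.50 (adjusted p = 0.00096, 0.000293 and 0.000121). YARS2, the mitochondrial tyrosine enzyme, read 874, 1067 and 869 against 715, 569 and 739 (-0.47, adjusted p = 0.0382), a call lost when any of 5 single arrays was left out (highest adjusted p 0.191). The cytosolic count was 7 to 9 without any single array, with 7 when DMSO replicates 1 or 3 or enzastaurin replicate 2 was left out, and 6 with array medians subtracted. The difference between the compartments was not tested.

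The amino acid response element is the site through which ATF4 acts. Its core letters TGATGNAA, searched on both strands as above, were present in 3.14% of all windows. Of genes with at least 1 such window, 2.54% of 10080 tested, 5.15% of 388 higher and 4.44% of 495 lower genes held a match. In the 4 lists of ATF4 targets and amino acid genes, 8 of 30 higher genes and 4 of 28 genes that were not called held it. Over the first listed start of each gene alone the counts were 5 and 3. ASNS and GARS1 are shown because they had the smallest p among the named higher genes of these lists that hold the match. Higher genes with the match that are not named, such as ATF3, CEBPG and JDP2, were not considered. ASNS lies on the - strand at chr7:97872409-97872658, with the match 68 to 61 bases before the start. GARS1 lies on the + strand at chr7:30594628-30594877, with a match on the opposite strand 33 to 26 bases before the start. Capitals mark the matches.
ASNS: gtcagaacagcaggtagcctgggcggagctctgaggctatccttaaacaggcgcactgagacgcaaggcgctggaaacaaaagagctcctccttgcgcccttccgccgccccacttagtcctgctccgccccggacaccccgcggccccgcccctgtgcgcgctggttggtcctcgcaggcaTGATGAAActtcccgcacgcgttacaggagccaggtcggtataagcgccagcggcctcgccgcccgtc
GARS1: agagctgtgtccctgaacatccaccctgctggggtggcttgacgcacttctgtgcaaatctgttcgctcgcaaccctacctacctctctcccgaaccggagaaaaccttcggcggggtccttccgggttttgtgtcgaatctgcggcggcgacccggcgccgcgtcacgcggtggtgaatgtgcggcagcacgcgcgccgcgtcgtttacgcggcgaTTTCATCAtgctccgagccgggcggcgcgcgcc

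ER genes were called in 1 direction only. Of 27 chaperones, sensors and degradation genes 11 were higher and none lower (median 0.24). XBP1, whose spliced mRNA encodes a factor of the unfolded protein response, read 1819, 1800 and 1737 in DMSO and 3612, 3827 and 3536 in enzastaurin (1.03, SE 0.07, adjusted p = 9.87e-09), and the array does not separate its spliced form. DNAJB9, a co-chaperone induced by XBP1, read 1332, 1330 and 1303 against 2927, 2744 and 2921 (1.11, adjusted p = 2.94e-07). HERPUD1, of ER-associated degradation, read 2900, 3147 and 3411 against 6799, 6480 and 5765 (1.01, adjusted p = 2.1e-05). HSPA5, the main ER chaperone BiP, read 13293, 14202 and 15723 against 21820, 19754 and 19396 (0.50, adjusted p = 0.000223). ATF6 read 1363, 1469 and 1270 against 1411, 1128 and 1352, with overlapping groups (-0.08, adjusted p = 0.764). Its 3 other probe sets above the level filter ran from -0.049 to 0.914, with 1 in the direction of the brightest. The count was 7 without DMSO replicate 2, DMSO replicate 3, enzastaurin replicate 1 or enzastaurin replicate 2 and with array medians subtracted, and 5 with probe sets averaged, when the call of XBP1 was lost. Of 12 heat shock proteins outside the ER, DNAJB1, a cytosolic co-chaperone (0.62, adjusted p = 0.000195), and HSPA9 of mitochondria (0.26, adjusted p = 0.0242) were higher and the median was 0.06. HSPA9 lost its call when any of 4 single arrays was left out (highest adjusted p 0.128).

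The ER stress element, bound by ATF6 together with NF-Y, is a long and rare motif, with the letters CCAAT and CCACG spaced by 9 bases. The pattern was present in 0.0740% of all windows, and in 0.149% of tested, 1.03% of higher and 0% of lower genes with a window. In the ER list it stood before 3 of 10 higher genes, HSPA5, XBP1 and HSP90B1, and before 4 of 13 that were not called, CALR, CANX, PDIA6 and CRELD2. Over first listed starts alone the counts were 3 and 3. HSP90B1 and the 4 that were not called were chosen after their values were seen. XBP1 and HSPA5 are shown as the higher genes with the smallest p. XBP1 lies on the - strand at chr22:28800570-28800819 with the match 52 to 34 bases before the start, and HSPA5 on the - strand at chr9:125241344-125241593 with the match 66 to 48 bases before it. Capitals mark the matches.
XBP1: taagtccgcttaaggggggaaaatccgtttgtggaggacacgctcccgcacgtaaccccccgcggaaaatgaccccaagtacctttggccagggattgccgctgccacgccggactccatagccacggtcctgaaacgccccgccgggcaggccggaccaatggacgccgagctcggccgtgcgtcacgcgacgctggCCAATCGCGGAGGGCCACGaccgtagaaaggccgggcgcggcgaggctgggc
HSPA5: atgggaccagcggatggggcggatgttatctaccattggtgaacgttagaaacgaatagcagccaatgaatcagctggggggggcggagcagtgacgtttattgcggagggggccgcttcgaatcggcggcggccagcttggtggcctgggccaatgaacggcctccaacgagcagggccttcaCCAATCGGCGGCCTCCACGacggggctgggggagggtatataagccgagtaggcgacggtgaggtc

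Wnt genes moved both ways. Of 14 feedback genes and beta-catenin targets 5 were higher and 4 lower (median -0.12). Besides AXIN2, ZNRF3, a ligase that removes Wnt receptors, read 1097, 1149 and 1025 in DMSO and 2209, 2448 and 2643 in enzastaurin (1.15, adjusted p = 9.85e-09). TNFRSF19 read 619, 616 and 565 against 2024, 2042 and 1758 (1.67, adjusted p = 3.43e-08). DKK1, a secreted Wnt inhibitor that is also a Wnt target, read 3745, 4117 and 4436 against 2072, 2180 and 2040 and so lay below all controls (-0.96, SE 0.08, adjusted p = 1.61e-07). MYC, a growth factor-responsive transcription factor, read 1626, 1524 and 1512 against 969, 955 and 826 (-0.75, SE 0.11, adjusted p = 0.000103). NKD1, a feedback inhibitor of Dishevelled, read 97.2, 121 and 108 against 139, 166 and 192 without a call (0.54, adjusted p = 0.211). The lower count was 2 with array medians subtracted or without both most deviating arrays. The TCF/LEF letters CTTTGAT were present in 2.26% of windows, and none of the 7 list members with a window held them there.

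No tested gene of GSK3 or of a protein kinase C isoform was called at the mRNA level. None of 9 tested genes in the list of GSK3 and the destruction complex was called (median 0.00). That list leaves out AXIN2, the scaffold gene that rose most, which is counted with the Wnt genes above. GSK3B read 2799, 2762 and 2628 against 2741, 3122 and 2702 (0.06, SE 0.07, adjusted p = 0.721) and GSK3A changed by 0.22 (adjusted p = 0.34). CTNNB1, the beta-catenin gene, read 4499, 4261 and 4224 against 3735, 3827 and 3515, which did not overlap, with a change of -0.23 (adjusted p = 0.0609). Of 10 protein kinase C genes and relatives, PRKD1 of the protein kinase D family was lower, at 988, 989 and 950 against 605, 675 and 737 (-0.53, adjusted p = 0.00257), a call lost when its probe sets were averaged. This 1 call among 10 is near the 8.45% of all genes tested. PRKCB, the isoform the drug was developed against, was dim, at 143, 87.7 and 86.6 against 126, 80.4 and 183 (0.23, adjusted p = 0.783). PRKCA (-0.18), PRKCI (-0.23), PRKCH (-0.50), PRKCD (0.49), PRKCE (0.10), PRKCQ (-0.02), PRKD2 (-0.01) and PRKD3 (-0.05) were not called, with adjusted p values of 0.0562 to 0.979. Other probe sets above the level filter showed -0.819 in PRKCA, -0.538 in PRKCQ, -0.422 to -0.22 in PRKCI and -0.026 in PRKCH. Those of PRKCE (0.413), PRKD2 (0.046 to 0.198) and PRKD3 (0.036 to 0.086) were positive.

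Called genes downstream of BMP and YAP were lower. All 4 ID genes, which encode inhibitors of differentiation factors, were lower, and so was SMAD6, an inhibitory SMAD. The list held 12 tested genes with 5 lower and none higher (median -0.37). ID1 read 15296, 16453 and 17552 in DMSO and 6994, 7270 and 7986 in enzastaurin (-1.15, SE 0.07, adjusted p = 1.62e-09). ID3 (-0.86) and ID2 (-0.66) fell without overlap (adjusted p = 1.26e-07 and 1.99e-05), and SMAD6 read 754, 884 and 845 against 347, 364 and 329 (-1.22, adjusted p = 3.81e-07). The list count was 3 with probe sets averaged. Of 14 YAP and TEAD targets 6 were lower and none higher (median -0.21). CCN1, a matrix protein gene beside CCN2 in this list, read 7216, 7202 and 8387 against 3737, 3710 and 3282 (-1.08, adjusted p = 5.86e-08), and AMOTL2, which holds YAP outside the nucleus, fell by 0.59. F3, tissue factor (-0.60, adjusted p = 0.0151), lost its call without DMSO replicate 3 or without enzastaurin replicate 3 (highest adjusted p 0.0675), and the list count was 3 without either of these arrays. Of 17 TGF-beta genes 2 were higher and 2 lower (median -0.04). TGIF1, a repressor of TGF-beta signalling (-0.67, adjusted p = 1.48e-05), fell, while PMEPA1, a feedback inhibitor of the same pathway, rose from 6344, 5076 and 4910 to 7828, 8350 and 7813 (0.56, adjusted p = 0.000174).

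Immediate early and ERK feedback genes were split, with 2 of 24 higher and 7 lower (median -0.06). ETV1, an ERK-responsive factor, read 691, 728 and 814 in DMSO and 363, 402 and 314 in enzastaurin (-1.02, adjusted p = 9.07e-06). DUSP6, which inactivates ERK, read 718, 658 and 740 against 418, 452 and 408 (-0.71, adjusted p = 0.000974). DUSP1, a stress-induced MAP kinase phosphatase, fell by 0.84 on the brightest probe set (adjusted p = 9.07e-06), while the other probe set showed a change of 0.06 in the opposite direction. ZFP36L2, an mRNA decay factor, showed -0.46 on its brightest probe set and -0.01 and 0.28 on the others, and both calls were lost when probe sets were averaged. The list's lower count was 3 with probe sets averaged and 4 with array medians subtracted, and the higher count was 0 without DMSO replicate 1 or enzastaurin replicate 2. HEXIM1, which restrains the elongation kinase P-TEFb, read 3611, 3402 and 3632 against 1861, 1964 and 1635 (-0.96, adjusted p = 1.03e-07).

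Insulin signalling and FOXO targets had 1 of 20 higher and 5 lower (median -0.23). SGK1, a kinase induced by hormones and serum, read 1121, 1208 and 1118 in DMSO and 675, 773 and 770 in enzastaurin (-0.63, adjusted p = 0.000591), and CCNG2, a cyclin gene that FOXO factors induce, read 875, 1068 and 1228 against 502, 525 and 312 (-1.24, adjusted p = 0.000735). FOXO3 itself was the higher gene (0.30, adjusted p = 0.0122), a call lost without DMSO replicate 1 or either of enzastaurin replicates 2 and 3 (highest adjusted p 0.0638). The lower count was 2 without DMSO replicate 3 and with array medians subtracted, and 3 without enzastaurin replicate 2 or 3. Of 22 uptake and glycolysis genes PFKFB3, which makes an activator of phosphofructokinase, was lower, at 2182, 2449 and 2310 against 1657, 1570 and 1264 (-0.63, adjusted p = 0.000583), and HK2, a hexokinase, was higher (0.46, adjusted p = 0.00581). The value of HK2 was -0.14 when its probe sets were averaged. The median of the list was 0.07, and its share of calls is near the 8.45% of all genes tested. Of 16 glycogen and glucose response genes the 2 higher ones were the arrestin-like genes ARRDC4, at 1054, 890 and 905 against 1764, 1885 and 1736 (0.91, adjusted p = 2.73e-06), and TXNIP, an inhibitor of glucose uptake (0.51, adjusted p = 0.000211). No glycogen enzyme was called among 10.

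Hypoxia response genes were called in both directions, with 2 of 16 higher and 5 lower (median -0.17). VEGFA, the main angiogenic growth factor, read 1461, 1631 and 1765 in DMSO and 3837, 4119 and 3728 in enzastaurin (1.26, adjusted p = 9.3e-09), and BHLHE40, a repressor that also acts in the clock, rose by 0.91 (adjusted p = 3.16e-05). NDRG1, a stress and differentiation gene, read 1291, 1350 and 1404 against 711, 628 and 596 (-1.05, adjusted p = 3.16e-05), and BNIP3L, of mitochondrial autophagy, fell by 0.69 (adjusted p = 0.000147). The lower count was 2 or 3 without any single array except DMSO replicate 1. Of 13 Notch genes LFNG, HEY1, a Notch-induced repressor (-0.55, adjusted p = 0.00454), and the ligand gene JAG1 (-0.33, adjusted p = 0.00509) were lower and none was higher (median -0.21). Of 7 retinoid genes 1 was higher and 2 were lower (median -0.075), the latter RARB and DHRS3, which is given with the largest falls. RARB, a retinoic acid receptor, read 850, 969 and 1032 against 470, 408 and 549 (-0.98, adjusted p = 0.000147). ALDH1A3, which makes retinoic acid, was higher, at 2863, 2913 and 2646 against 3974, 3955 and 4330 (0.54, adjusted p = 0.000338). The calls of RARB and ALDH1A3 were both lost with probe sets averaged.

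All 6 metallothionein genes tested were lower. Metallothioneins bind zinc and copper, and the zinc sensor MTF1 and the zinc exporter SLC30A1 were the higher members of this list of 8 (median -0.61). MT1G read 8519, 9746 and 9707 in DMSO and 3914, 4271 and 3714 in enzastaurin (-1.23, adjusted p = 4.9e-08), MT2A changed by -0.61 and MT1H by -0.78 (adjusted p = 6.21e-05 and 0.000614). These genes are near-identical in sequence and their probe sets can read one another, so the 6 are not independent and the member that fell is uncertain. MTF1 and SLC30A1, chosen after their values were seen, were not called with array medians subtracted or without DMSO replicate 3, when the higher count was 0. Of 18 interferon-stimulated genes 4 were lower and none higher (median -0.23). IFIT3, an antiviral gene, read 408, 390 and 260 against 171, 171 and 170 (-0.96, adjusted p = 0.00231). ISG15, a ubiquitin-like modifier (-0.39, adjusted p = 0.0335), lost its call when any of 5 single arrays was left out (highest adjusted p 0.130). The interferon count was 2 with array medians subtracted or probe sets averaged. Of 16 NF-kB genes TNFAIP2, induced by the cytokine TNF (-0.73, adjusted p = 4.58e-05), and IER3, an early survival gene (-0.30, adjusted p = 0.00831), were lower, and none of 5 cytokine genes tested was called. IER3 was not called without DMSO replicate 3 (adjusted p = 0.0531).

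Growth and death genes were called in both directions at 10 h, and their counts stand against 8.45% of all genes tested. Of 32 mitosis genes 2 were higher and 3 lower (median -0.01). PLK1, a mitotic kinase, read 3925, 3723 and 3712 in DMSO and 4560, 4393 and 4731 in enzastaurin (0.27, adjusted p = 0.0111), while CDC25C, which activates CDK1, read 1548, 1508 and 1679 against 1219, 934 and 1133 (-0.53, adjusted p = 0.00522). Of 11 G1 cyclin, CDK and inhibitor genes CDK4 was higher (0.25, adjusted p = 0.00782) and CDKN1A (-0.68, adjusted p = 0.00168), CDKN1B (-0.36, adjusted p = 0.0017) and CDK6 (-0.40, adjusted p = 0.0174) were lower. The cyclin D1 gene CCND1 is not in this list but among the Wnt targets, where it was called higher (0.66). CDKN1A, the CDK inhibitor p21, read 1094, 970 and 1103 against 587, 717 and 653, with no overlap. CDK4 was not called without enzastaurin replicate 2 (adjusted p = 0.0515), nor CDK6 without DMSO replicate 1 or enzastaurin replicate 1 (up to 0.0928). Of 25 death receptor, BCL2 family and caspase genes 3 were higher and 3 lower (median -0.05). PMAIP1, the BH3-only death gene NOXA, rose by 0.31 (adjusted p = 0.0129), a call lost without DMSO replicate 2 or enzastaurin replicate 1 (up to 0.0730). FAS, a death receptor gene counted here with p53 targets, read 314, 228 and 278 against 649, 698 and 624 (1.23, SE 0.17, adjusted p = 6.63e-05). Of 11 such targets it and the growth arrest gene GADD45A (0.37) were higher, and TP53INP1 (-0.88) and BTG1 (-0.52), both linked to arrest of growth, were lower. TP53INP1 lost its call when any of 5 single arrays was left out (highest adjusted p 0.195), and BTG1 with array medians subtracted (0.0533). The higher count of the death list was 0 without enzastaurin replicate 1 and with array medians subtracted. Ribosome biogenesis genes had 6 of 19 higher and none lower (median 0.24). RRP9, a nucleolar processing factor, read 1216, 1206 and 1076 against 1879, 1661 and 2006 (0.66, adjusted p = 0.00314), and the count was 2 without DMSO replicate 3 or enzastaurin replicate 1 and 1 with array medians subtracted. Of 21 subunits of oxidative phosphorylation 1, COX5B, was lower (-0.19, adjusted p = 0.047), a call lost when any single array was left out (up to 0.161).

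**Figure D3:**
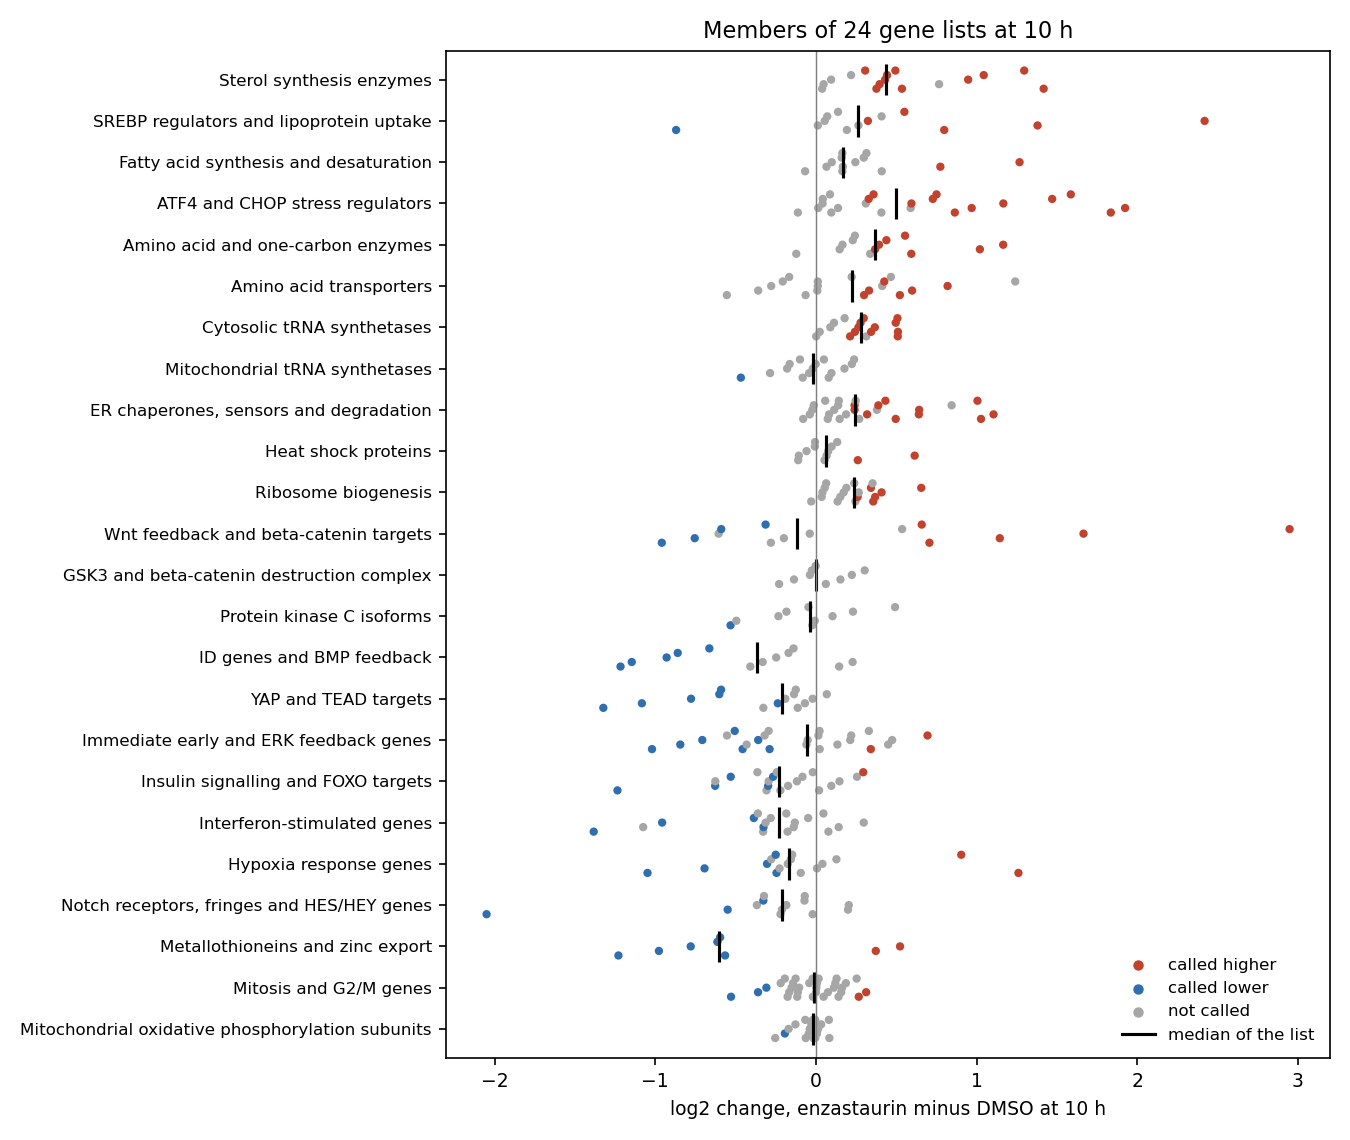
Log2 change at 10 h (x axis) of the tested members of 24 gene lists (rows), 1 point per gene, coloured by call, with bars at list medians. Sterol enzymes (median 0.44) and ATF4 genes (0.50) lie to the right, metallothioneins (-0.61) to the left, and cytosolic synthetases (0.28) apart from mitochondrial ones (-0.02).

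Some named calls at 10 h depended on scaling or on the choice of probe set. With array medians subtracted CDKN1B (adjusted p = 0.11), PLK1 (0.105), JAG1 (0.0768), IER3 (0.0839), CDK4 (0.104), PMAIP1 (0.108), FOXO3 (0.125) and F3 (0.097) were no longer called. With probe sets averaged, SMAD6, MT1G, CARS1, CDC25C, JAG1, SREBF2, SLC7A1 and HSD17B1 were among the calls lost, beside those given above. So were CDK6 (-0.19, adjusted p = 0.54), TP53INP1 (-0.323, 0.508) and COX5B (-0.214, 0.481). The average also takes in probe sets below the level filter. Other probe sets above it showed -0.81 in SMAD6, -0.60 in CDC25C, 0.487 to 0.695 in CARS1 and 0.425 to 0.56 in SLC7A1. They showed 0.221 to 0.416 in SREBF2 and -0.36 to -0.179 in JAG1, all in the direction of the call. MT1G and HSD17B1, and XBP1, PRKD1, ALDH1A3 and HK2 given above, had no other probe set above it. IL31RA (-0.822), FASN (1.246), HERPUD1 (0.62), TNFAIP2 (-1.344), ETV1 (-0.612), FAS (0.774) and FOXO3 (0.464) kept their calls in that average with values over 1.5 times larger or smaller. Without both most deviating arrays GPRC5A (adjusted p = 0.0783), IL31RA (0.0699), HEY1 (0.062) and HK2 (0.137) were among the calls lost.

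Each time has its own DMSO arrays, so the 10 h calls could be set beside those at 4 h (224 genes, 1.81% of those tested) and 18 h (1981 genes, 16%). Of the 10 h calls 99 were also called in the same direction at 4 h, 9.5% of the 10 h and 44.2% of the 4 h calls, and 5 in the opposite direction. With 18 h 602 were shared in direction, 57.6% of the 10 h and 30.4% of the 18 h calls, and 14 were opposite. At all 3 times 68 genes were called in the same direction, 29 higher and 39 lower, and 400 were called at 10 h alone. Calls at 1 time and not at another do not show a difference, which was tested directly.

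The effect at 10 h differed from that at 4 h in 174 genes (1.41% of those tested), with 100 more positive and 74 more negative at 10 h. Of these, 137 were among the 10 h calls, where 69 of the genes higher at 10 h were more positive than at 4 h, and of those lower 65 were more negative and 3 more positive. The difference holds the same 10 h values that chose these calls, so its direction among them was partly set in advance. LIPG had a 4 h change of 0.26 and a difference of 2.02 (SE 0.29, adjusted p = 0.000908). IDI1 differed by 1.30 (4 h change 0.00, adjusted p = 3.2e-05), SESN2 by 1.40 (adjusted p = 4.49e-05) and INSIG1 by 1.16 (adjusted p = 1.18e-05). TNFRSF19 differed by 0.88 (4 h change 0.79, adjusted p = 0.0194), a difference not tried under the alternatives. On the negative side LFNG differed by -1.60 (4 h change -0.45, adjusted p = 0.000908), PRSS35, a protease-like gene, by -1.36 (adjusted p = 0.000545), the long non-coding SOX2-OT by -1.24 (adjusted p = 0.00295) and RARB by -1.15 (adjusted p = 0.00565). MT1G differed by -0.98 (adjusted p = 0.000908). With probe sets averaged the difference was not called in LFNG (-0.534, adjusted p = 0.561), RARB (-0.307, 0.766), IDI1 (0.572, 0.313) or MT1G (-0.653, 0.622). TAMALIN (2.38), ZFP36 (1.90), GNAO1-DT (1.66) and CILP (1.52) had positive differences with 4 h changes of -2.40, -1.43, -1.14 and -0.89, and none of the 4 was called at 10 h. These 4 and CAPS (-1.07) lost the call of the difference without any 1 of 9 to 11 of the 12 arrays. With array medians subtracted the count was 26, with 8 more positive and 18 more negative, and the median difference of all genes was -0.11 in place of -0.01.

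The effect at 18 h differed from that at 10 h in 276 genes (2.23%), with 164 more positive and 112 more negative at 18 h. AXIN2 rose further, by 1.05 (adjusted p = 0.00371), as did FAS (0.96, adjusted p = 0.0352), whose effect had already grown by 1.10 between 4 and 10 h (adjusted p = 0.0239). NKD1 (1.74) and GPRC5B (2.11), an orphan receptor gene, were not called at 10 h and were at 18 h, with changes of 2.28 and 2.31 there. DKK1 and HEY1, both lower at 10 h, differed by 0.99 and 1.27 (adjusted p = 0.000105 and 0.00021), so that DKK1 stood at 0.03 and HEY1 at 0.72 at 18 h. In the other direction PLAU, urokinase, read 2228, 2284 and 2439 in DMSO and 2291, 2144 and 2054 in enzastaurin at 10 h (-0.10, adjusted p = 0.546) and changed by -1.75 at 18 h, a difference of -1.65 (adjusted p = 4.68e-08). The matrix gene THBS1 (-1.14), the chemokine gene CXCL8 (-1.48), ELFN2 (-1.79) and ASPG (-2.19) likewise were not called at 10 h and were lower at 18 h. The difference lost its call for GPRC5B without any 1 of 11 of the 12 arrays, and for ASPG without any 1 of 8. With probe sets averaged it was not called in NKD1 (1.308, adjusted p = 0.0756) or ELFN2 (-0.283, 0.872), and ELFN2 was not called without both most deviating arrays either (0.0928). FAS lost the call of its earlier difference without any 1 of 7 arrays (highest adjusted p 0.0818) and of its later one without any 1 of 9 (0.0986). DDIT4 stood at 2.25, 1.84 and 1.11 at 4, 10 and 18 h, with a difference of -0.73 between 18 and 10 h (adjusted p = 0.0286). Its difference between 10 and 4 h was not called (-0.41, adjusted p = 0.31), and neither was tried under the alternatives. HERPUD1 stood at 1.01 at 10 h and 0.21 at 18 h (difference -0.80, adjusted p = 0.0187), and FARSA at 0.51 and -0.07 (difference -0.58, adjusted p = 0.0175). Both lost the call with array medians subtracted (adjusted p = 0.145 and 0.199), with probe sets averaged (0.265 and 0.153) and without any 1 of 4 and of 3 arrays (up to 0.056 and 0.0548).

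In 6 genes the effect at 10 h exceeded that at both other times, by both tests. INSIG1 stood at 1.26, 2.42 and 1.81 at 4, 10 and 18 h, SESN2 at 0.52, 1.93 and 1.19, and XBP1 at 0.32, 1.03 and 0.56. CCND1, the G1 cyclin D1, chosen after its values were seen, stood at 0.18, 0.66 and -0.04, with 10 h intensities of 2845, 2809 and 2846 in DMSO and 4404, 4447 and 4600 in enzastaurin. ALDH1A3 stood at -0.03, 0.54 and -0.42, and PLK1 at -0.17, 0.27 and -0.34, so that both were higher at 10 h and lower at 18 h. With array medians subtracted, each of the 6 lost the call of at least 1 of its differences, INSIG1 (adjusted p = 0.0997), SESN2 (0.0678) and XBP1 (0.219) that to 18 h, and XBP1 (0.126), CCND1 (0.328), ALDH1A3 (0.281) and PLK1 (0.355) that from 4 h. With probe sets averaged all but PLK1 lost at least 1. Leaving out any of 3 single arrays ended a call of XBP1 (up to 0.0592), and any of 4 one of ALDH1A3 (0.0658) or PLK1 (0.067). The 2 differences share the 6 arrays of 10 h and are therefore not independent.

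**Figure D4:**
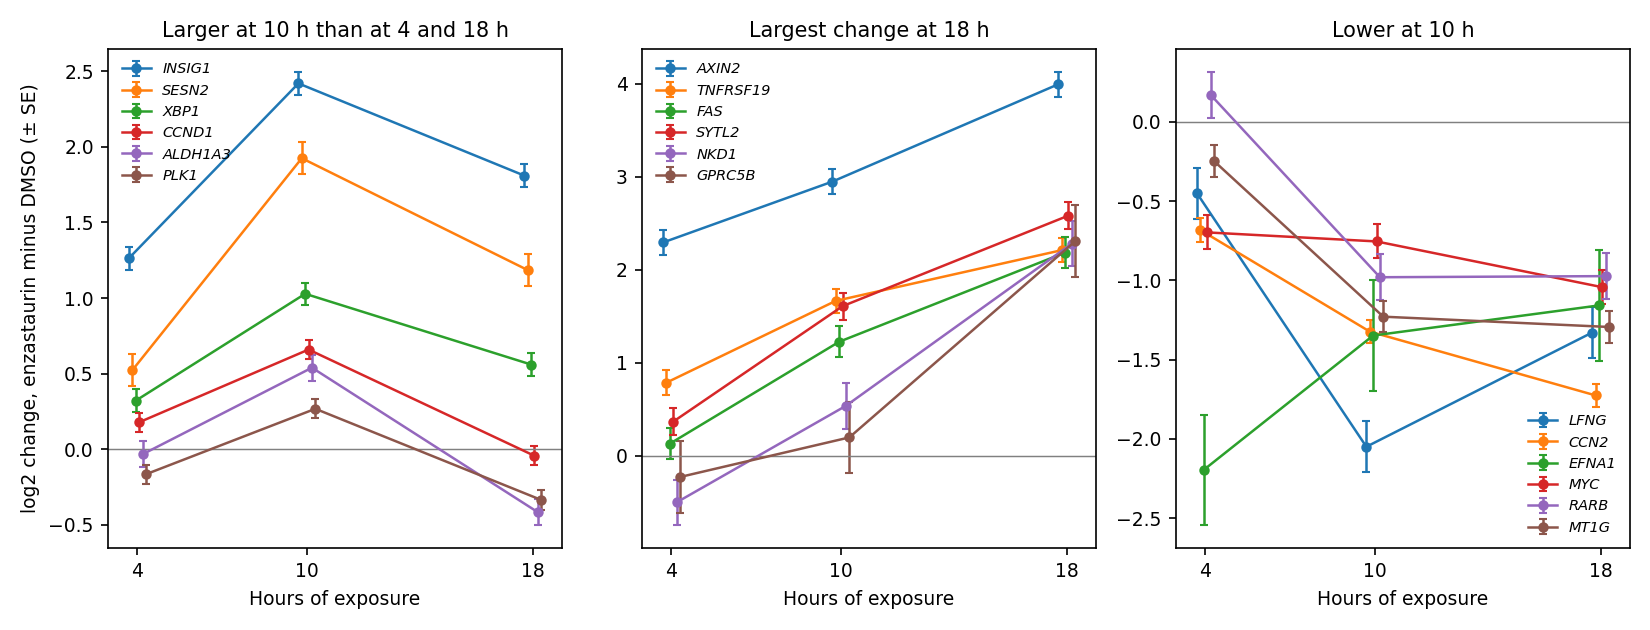
Log2 change of enzastaurin against DMSO (y axis, ± SE) at 4, 10 and 18 h (x axis), for the 6 genes with a larger effect at 10 h than at both other times and for 12 genes chosen after their values were seen. INSIG1 peaks at 2.42 and SESN2 at 1.93 at 10 h, and AXIN2 goes on to 4.00 at 18 h. LFNG stands at -2.05 at 10 h but is not among the 6 genes.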

How the data were processed

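The authors deposited 1 table of signal intensity for 54613 probe sets on 18 arrays (6 groups of 3), made with GCOS 1.2 per the submitters' processing notes. The deposited intensity is linear and its mean after trimming 2% at each end was 498.2 to 498.5 on every array. No detection calls were used here, so the depth of a probe set is its intensity alone, and the number of arrays limits the precision.

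Of the probe sets, 41091 had 1 gene symbol, 1801 several and 11721 none. Values became log2(intensity + 16), each gene was read from its brightest probe set, and genes under the median level were left out. limma 3.58.1 (R 4.3.3) fitted 1 mean per group over all 18 arrays, with a trend in eBayes. Changes, and differences between times, were contrasts of that fit with Benjamini-Hochberg adjustment. The fit was tested on simulated data. The members and lists were chosen with earlier results of these data known. Named genes are the 12 largest called rises and falls without overlap, up to 4 called members per list by adjusted p, a few fixed names, and the 6 largest differences each way. No p was computed for a list. Promoters are RefSeq windows (GRCh38.p14), and 141 of 174 named genes had 1. A gene was scored over all its listed starts, a choice made after the first start alone had been seen. Alternatives covered the offset, filter, scaling, probe set rule, array weights, trend, groups fitted, replicate block and each array left out. 1 of the named falls is not reported here.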

Additional observations from a re-analysis of the deposited data

Results flagged for a closer look

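The effect of enzastaurin differed between times in 174 genes for 10 against 4 h and in 276 genes for 18 against 10 h, by limma's test of the difference itself. The differences below are a selection, which leaves out those of DDIT4 and TNFRSF19 given above. All are on the log2 scale, passed that test, and carry no explanation. Those of FAS, XBP1, ALDH1A3, CCND1, PLK1, IDI1, MT1G, INSIG1, SESN2, HERPUD1 and FARSA that an alternative ended are given with the comparisons of times.

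Between 4 and 10 h the effect became more positive in LIPG (2.02), SESN2 (1.40), IDI1 (1.30), INSIG1 (1.16), FAS (1.10), XBP1 (0.71), ALDH1A3 (0.57), CCND1 (0.48) and PLK1 (0.43). It became more negative in SALL2 (-2.35), a zinc finger factor, LFNG (-1.60), PRSS35 (-1.36), SOX2-OT (-1.24), RARB (-1.15) and MT1G (-0.98). SALL2 stood at 1.09 at 4 h (adjusted p = 0.0602) and at -1.26 at 10 h (adjusted p = 0.00886), where the call was lost without enzastaurin replicate 3 (0.0547) and without both most deviating 10 h arrays (0.126). TAMALIN (2.38), ZFP36 (1.90), GNAO1-DT (1.66), CILP (1.52) and CAPS (-1.07) were flagged too, and each lost the call without any 1 of at least 9 of the 12 arrays.

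Between 10 and 18 h the effect became more positive in SIMC1P1 (2.09), NKD1 (1.74), LMO2 (1.54), a LIM domain factor, HEY1 (1.27), AXIN2 (1.05), DKK1 (0.99) and FAS (0.96). It became more negative in ELFN2 (-1.79), PLAU (-1.65), CXCL8 (-1.48), THBS1 (-1.14), CPA4 (-1.11), a carboxypeptidase, ALDH1A3 (-0.96), HERPUD1 (-0.80), SESN2 (-0.74), CCND1 (-0.70), INSIG1 (-0.61), PLK1 (-0.60), FARSA (-0.58) and XBP1 (-0.47). PCDHAC1 (2.46), GPRC5B (2.11), ZSCAN20 (1.57) and ASPG (-2.19) lost the call without any 1 of 6, 11, 10 and 8 of the 12 arrays. With probe sets averaged the difference between 18 and 10 h was not called in SIMC1P1 (0.707, adjusted p = 0.455), LMO2 (0.813, 0.322), NKD1 (0.0756) or ELFN2 (0.872), nor that between 10 and 4 h in LFNG (0.561) or RARB (0.766).

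Among 4526 probe sets without a single gene symbol, which the counts of genes leave out, 50 were higher and 55 lower at 10 h. They stand for no named gene.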

How the results depend on the processing

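At 10 h the count of 1046 genes was 443 with array medians subtracted, 630 with probe sets of a gene averaged and 502 without both most deviating 10 h arrays, and 653 to 791 without any single array. Under the other alternatives it ran from 856 with no level filter to 1521 with array weights. The difference between 10 and 4 h, 174 genes, was 26, 68 and 65 under the first 3 settings, 114 with no level filter, 90 with no trend, and 67 to 154 without any single array. The difference between 18 and 10 h, 276 genes, was 65, 130 and 141 under the first 3 settings and 181 to 286 without any single array. Leaving out both arrays was chosen after the data were seen. With the replicate block the counts were 1045, 155 and 271. Same-numbered arrays at 10 h had deviations correlated at -0.0295 to 0.0383, which gives no sign of pairing by number. With 3 arrays per group these values cannot show whether same-numbered samples were handled together. Of 143 named genes called at 10 h, 80 kept their call under every setting named in the methods that included them. The filter to the brightest 25% of probe sets included only 125 of the 143. Averaging probe sets turned the sign of HK2 (-0.14), CAT (0.022) and ATP6V1H (-0.028). The cause of these shifts was not tested. Genes near the median level, such as ASPG and GNAO1-DT, had the larger errors, and 3 arrays per group limit what a call can show.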

Other observations

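Several further gene groups held at most 4 calls each at 10 h, to be read against 8.45% of all genes tested. Of 24 replication genes 2 were higher and 2 lower. CDT1, a licensing factor, read 2194, 2288 and 1659 in DMSO and 3164, 2938 and 2584 in enzastaurin (0.51, adjusted p = 0.00667), a call lost when 1 of the arrays was left out (adjusted p = 0.0522) and with probe sets averaged. POLE2 (-0.32) and MCM5 (-0.27) lost theirs without any 1 of at least 5 arrays. Of 11 clock genes PER2, a core repressor, was the higher one, at 683, 705 and 887 against 1176, 1204 and 1433 (0.74, adjusted p = 0.00593), a call lost without both most deviating arrays (0.116). Of 22 lysosome and autophagy genes WIPI2, of the forming autophagosome, fell from 4191, 4302 and 3980 to 2472, 2480 and 2582 (-0.72, adjusted p = 9.11e-06), and GABARAPL1, of the same pathway, changed by -0.54 (adjusted p = 0.00227). The call of WIPI2 was lost with probe sets averaged.

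Of 11 NRF2 targets the antioxidant enzyme genes NQO1 (-0.35, adjusted p = 0.00372) and TXNRD1 (-0.28, adjusted p = 0.0248) were lower and none was higher. Of 9 growth factor receptor kinase genes FGFR3 was lower, at 836, 841 and 963 against 455, 425 and 561 (-0.86, adjusted p = 0.00423), a call lost with probe sets averaged (-0.495, adjusted p = 0.082). Of 24 collagen and integrin genes COL13A1 was higher (0.65) and ITGB8 lower (-0.59). Of 6 clustered histone genes tested H2BC12 was higher, at 477, 537 and 462 against 823, 1138 and 1063 (log2 change 1.002, adjusted p = 5.4e-05), and near-identical copies make its identity uncertain. H1-10 of the same list was lower (-0.53, adjusted p = 0.00814). Its call was lost without DMSO replicate 3 (0.0627) and with array medians subtracted (0.0755). No member of 11 Kruppel-like factor genes was called by limma. The calls of TXNRD1 and COL13A1 were lost when any of 4 and of 5 single arrays was left out (highest adjusted p 0.0964 and 0.135), and that of ITGB8 without DMSO replicate 2 (0.0552), without both most deviating arrays (0.1) and with probe sets averaged (0.245). Averaging probe sets also ended the calls of TXNRD1 (-0.039, adjusted p = 0.954) and COL13A1 (0.515, 0.347).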
